A study of Mus musculus with 36 samples.

Results

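The integrin and laminin chains are 36 of the 24421 gene symbols in the count files. The rule that chose them uses the gene name and no measured value, and takes every symbol for an integrin alpha or beta chain or a laminin alpha, beta or gamma chain, with 1 integrin symbol left out. They comprise 17 integrin alpha, 8 integrin beta, 5 laminin alpha, 3 laminin beta and 3 laminin gamma genes. RNA was sequenced in bulk from 3 liver cell types of C57BL/6 mice. These were the hepatocytes, the sinusoidal endothelial cells (LSECs) and the stellate cells (HSCs), the pericyte-like cells that store vitamin A. Each cell type had 3 groups of 4 libraries, 36 libraries in all: WT (PBS-treated animals, by the design text), and collections 12 h or 36 h after diphtheria toxin was injected, the agent that depletes Kupffer cells in the study. The labels name no toxin receptor transgene, do not state the mice's age and do not say whether each library came from 1 mouse, so p-values measure the spread between these libraries. Toxin was given in both depleted groups and in no WT group, and depletion and toxin cannot be told apart.

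Integrins are receptors made of 1 alpha and 1 beta chain that bind the extracellular matrix or molecules on other cells and link them to the actin cytoskeleton. The beta chain Itgb1 pairs with many alpha chains, among them the collagen receptor chain Itga1, the RGD-binding chains Itga5, Itga8 and Itgav, the chain Itga9 and the laminin receptor chains Itga3, Itga6 and Itga7. Laminins are basement membrane proteins built from 1 alpha, 1 beta and 1 gamma chain. In the liver sinusoid the space of Disse, between LSECs and hepatocytes, holds the HSCs and lacks a continuous basement membrane. RNA shows which chains a cell could make, and neither protein nor assembled heterodimers or trimers were measured.

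Libraries held 25404719 to 31734631 gene counts. Each cell type held its defining marker: Lrat, which esterifies vitamin A in HSCs, was at 2519.9 to 3379 counts per 1000000 gene counts (CPM) in HSC WT libraries, the scavenger receptor Stab2 at 3753 to 5079 in LSEC WT libraries and Alb at 36908 to 55886 in hepatocyte WT libraries. Clec4f, a Kupffer cell marker, was at 0.17 to 7.08 CPM in hepatocyte WT libraries and at 0 in every hepatocyte 12 h and 36 h library. In HSCs it was at 0.234 to 1.25 CPM in WT, 0 at 12 h and 0 to 0.642 at 36 h, and in LSECs at 0.342 to 1.98, 0 to 0.178 and 0 to 0.357. Some libraries stood apart. Replicate 4 of HSC 36 h and of LSEC 36 h held the Kupffer cell genes Cd5l (4.74 and 5 CPM) and Marco (2.87 and 2.98), of which the other 3 libraries of each group held at most 1.21 and 0.03. With or without that replicate, 1 member was called at 36 h against WT in HSCs and 0 in LSECs. LSEC 36 h replicate 4 held 19.7 CPM of Lrat against 0.785 to 3.12 in the other 3 of its group. The nuclear RNA Malat1 lay above 100 CPM in 5 of the 12 hepatocyte libraries (WT replicates 1 and 2, 12 h replicate 1, and 36 h replicates 1 and 2, at 334 to 678 CPM) and below 70 in the other 7. In bulk RNA, fewer cells of a type and less RNA per cell cannot be told apart.

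The members took 0.894 to 0.995% of all gene counts in HSC WT libraries, 0.416 to 0.479% in LSEC WT libraries and 0.0262 to 0.0469% in hepatocyte WT libraries. Of the 36, 21 reached a mean of 5 CPM in at least 1 of the 9 groups. The other 15 included Itga2, Itga4, Itga10, Itga11, Itgad, Itgae, Itgal, Itgax, Itgb2, Itgb4, Itgb6, Itgb8, Lamb3 and Lamc3. Itgad had no count in any library. The leukocyte alpha chains Itgae, Itgal and Itgax had no group mean above 1.5 CPM, and the gamma chain Lamc3 none above 0.298 CPM.

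**Figure D1:**
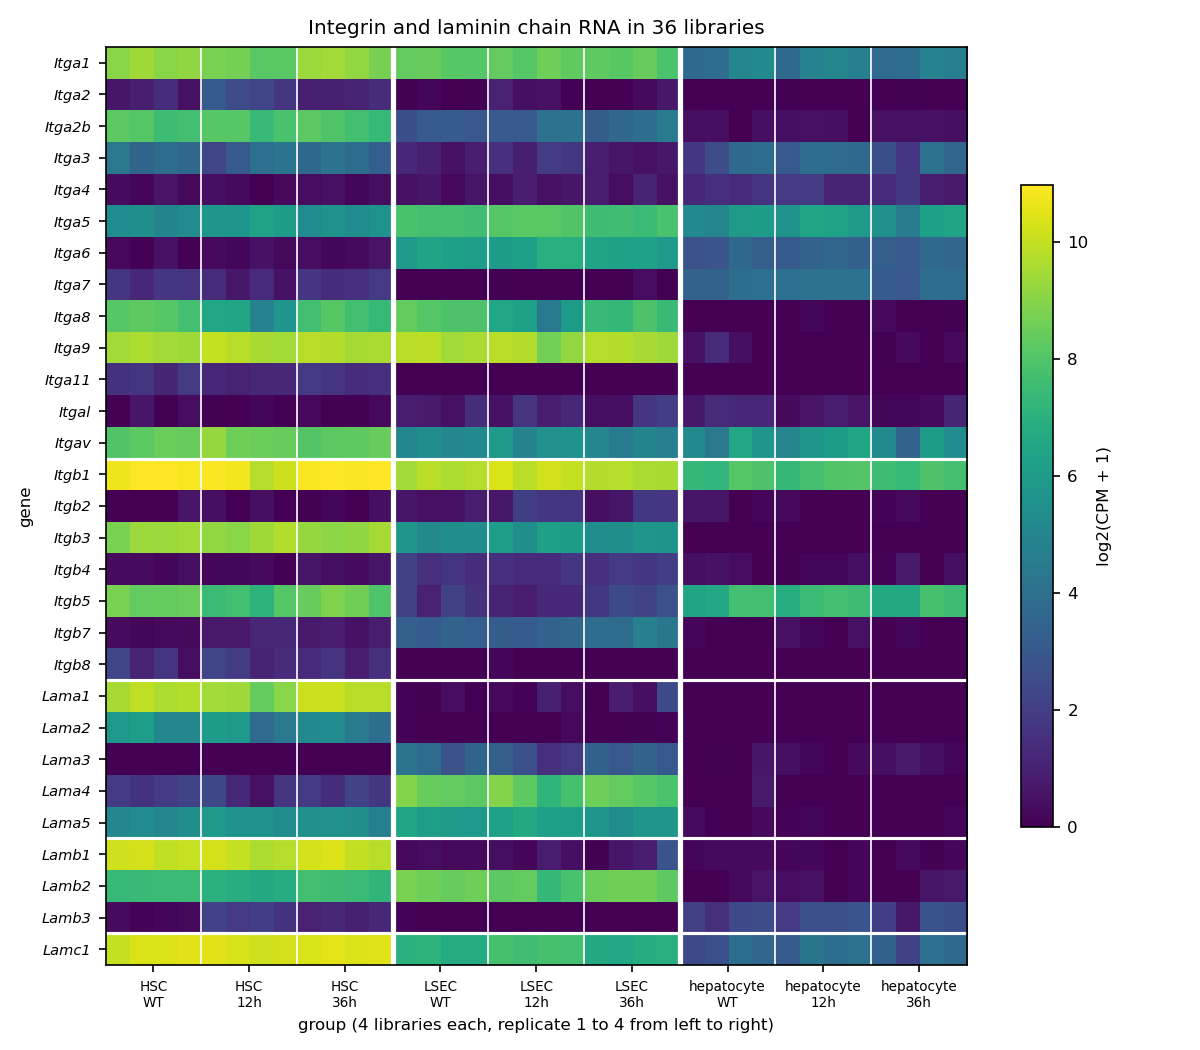
Heat map of log2(CPM + 1) for the 29 members whose mean reached 1 CPM in some group (rows, by chain family) in the 36 libraries (columns, 4 per group, replicates 1 to 4 from left to right). Lama1, Lamb1 and Lamc1 are bright in the 12 HSC libraries, Lama4 and Lamb2 are bright in the LSEC libraries, and the hepatocyte columns are dark in all laminin rows except faint signal for Lamb3 and Lamc1.

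In WT livers the 3 cell types carried different laminin chain RNAs. HSCs held a set of Lama1, Lamb1 and Lamc1, whereas LSECs held Lama4, Lama5, Lamb2 and a lower level of Lamc1. Levels per kilobase were divided by the merged GENCODE M21 exons of each gene, so comparisons between genes depend on those lengths. On this scale the HSC levels were 86.7 ± 9.59 CPM per kb for Lama1, 111 ± 11.7 for Lamb1 and 156 ± 21.1 for Lamc1 (SD, n = 4). The next HSC laminin chain was Lamb2 at 28.3 ± 1.21 CPM per kb, and the alpha chains Lama5 and Lama2 had 3.26 and 2.99. In LSECs the levels were 63.2 ± 6.67 CPM per kb for Lamb2, 30.2 ± 7.41 for Lama4, 14.3 ± 1.88 for Lamc1 and 5.91 ± 1.18 for Lama5. In hepatocytes no laminin chain exceeded the 1.09 ± 0.593 CPM per kb of Lamc1.

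The separation of Lama1 and Lamb1 between the sinusoidal cell types was wide. Lama1 read 751, 966, 795 and 847 CPM in the 4 HSC WT libraries and 0.0848, 0.0609, 0.287 and 0 in the LSEC WT libraries, with no count in hepatocyte WT. The HSC and LSEC values did not overlap (log2 fold change 12.82, SE 0.50, adjusted p = 2.5e-09). Lamb1 stood at 1149, 1228, 960.2 and 1053 CPM in HSC WT and at 0.17, 0.274, 0.182 and 0.228 in LSEC WT, again without overlap (log2 fold change 12.31, SE 0.25, adjusted p = 6.5e-13). Lamc1, the gamma chain of most laminins, was present in both, at 1047, 1309, 1353 and 1456 CPM in HSC WT against 124, 138, 106 and 106 in LSEC WT. Every HSC value exceeded every LSEC value (log2 fold change 3.45, SE 0.33, adjusted p = 6.76e-07).

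Lama4 showed the opposite order. LSEC WT libraries held 494, 346, 324 and 293 CPM and HSC WT libraries 2.81, 2.06, 2.71 and 3.7 (log2 fold change -7.00, SE 0.47, adjusted p = 1.55e-08 for HSC against LSEC). Lamb2 was higher in LSECs as well, at 441, 372, 346 and 378 CPM against 164, 168, 176 and 180.3 in HSC WT, without overlap (log2 fold change -1.16, SE 0.27, adjusted p = 0.00246). Lama5 differed less, at 67.3 ± 13.5 CPM in LSEC WT and 37.2 ± 5.27 in HSC WT (adjusted p = 0.00431). Lama3 reached 11.9 ± 4.8 CPM in LSEC WT and had no count in any of the 12 HSC libraries, which puts the LSEC WT level at least 522-fold above HSC WT (floor of 3 counts over the group). Lama2 was highest in HSCs, where it read 56.9, 71.2, 34.4 and 33 CPM, with LSEC WT at 0.0212 ± 0.0424 and no count in hepatocyte WT. Lamb3, a chain known from epithelial laminin, was highest in hepatocytes at 3.57 ± 1.4 CPM against 0.156 ± 0.0748 in HSC WT (log2 fold change -4.48, SE 0.54, adjusted p = 3.37e-06 for HSC against hepatocyte).

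**Figure D2:**
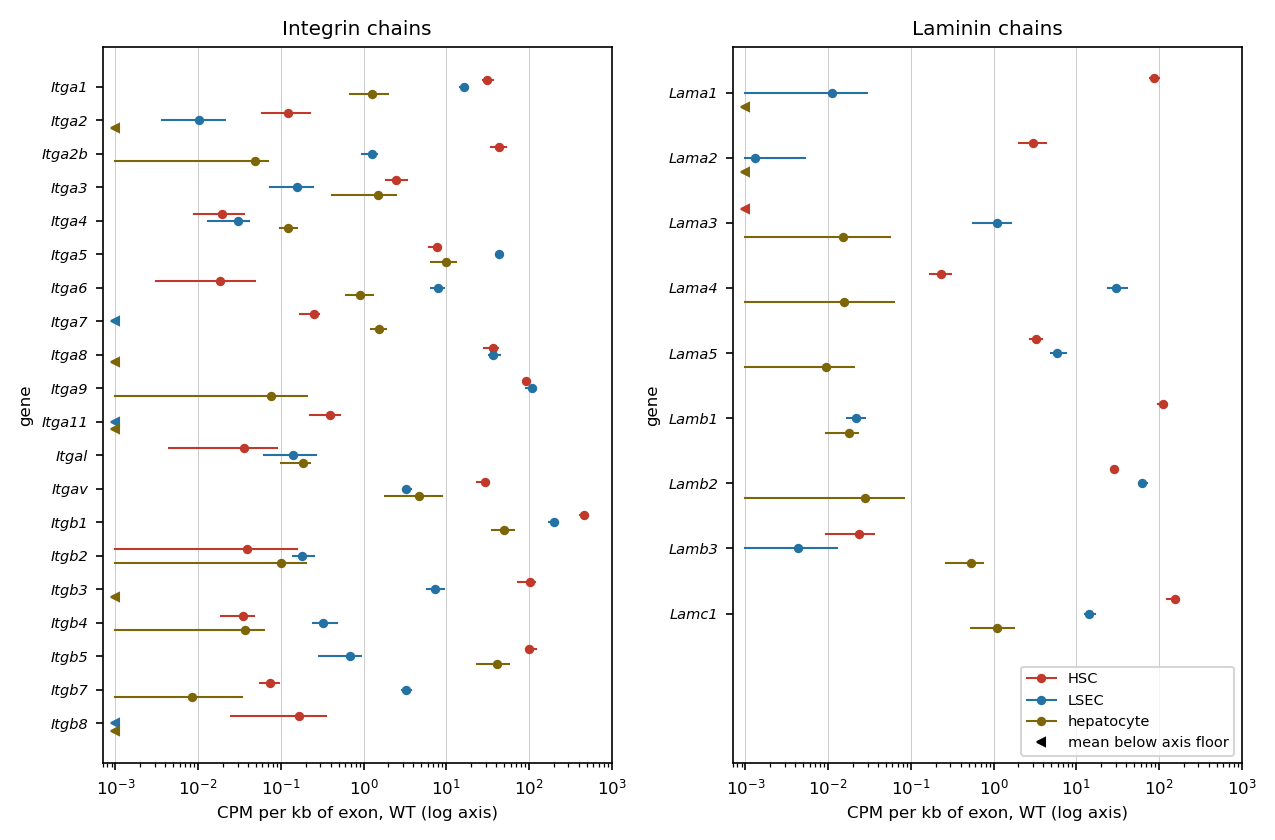
Level of the integrin (left) and laminin (right) chains whose mean reached 1 CPM in some group, in WT libraries, as CPM per kb of exon on a log axis; points are means of 4 libraries, lines run from the lowest to the highest library, and triangles at the left edge mark means below 0.001. Lama1 and Lamb1 lie near 100 in HSCs and near or below 0.02 in LSECs, while Itga8 and Itga9 overlap between HSCs and LSECs and lie far lower in hepatocytes.

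Among the integrin chains, Itgb1 was the most abundant per kilobase in each WT cell type, at 463 ± 36.3 CPM per kb in HSCs, 201 ± 21.9 in LSECs and 50.2 ± 14.7 in hepatocytes. HSCs also held the beta chains Itgb3 and Itgb5, at 103 ± 19.3 and 101 ± 13.7 CPM per kb. Their leading alpha chains per kilobase were Itga9 (93.5), Itga2b (44), Itga8 (36.6), Itga1 (30.9) and Itgav (29). Of neighbours in that order, the library ranges of Itga8 and Itga2b overlapped, as did those of Itga8 with Itga1 and Itga1 with Itgav. The order also depends on the exon lengths used, such as 18.6 kb for Itga1 and 5.45 kb for Itga2b. In LSECs the order was Itga9 (108), Itga5 (43.3), Itga8 (36.7), Itga1 (16.5) and Itga6 (7.94), with overlapping library ranges for Itga5 and Itga8. In hepatocytes Itgb1 was followed by Itgb5 (41.4 ± 18.2 CPM per kb), and the leading alpha chains were Itga5 at 9.8 and Itgav at 4.71.

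Itga8 and Itga9 were shared by the sinusoidal cells. Itga8, which with Itgb1 binds nephronectin and other RGD proteins, read 283, 308, 278 and 209 CPM in HSC WT and 330.5, 270.1, 239 and 241 in LSEC WT, and hepatocyte WT libraries had no count. The HSC and LSEC values overlapped (log2 fold change -0.00, SE 0.16, adjusted p = 0.997; 95% interval of the log2 difference -0.32 to 0.32). In the same LSEC WT libraries the HSC marker Lrat stood at 0.57 to 1.62 CPM and Lamb1 at 0.17 to 0.274, both near 0. Itga9 was at 719 ± 44.5 CPM in HSC WT and 833 ± 108 in LSEC WT (95% interval of the log2 difference -0.99 to 0.57), against 0 to 1.59 in hepatocyte WT.

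Itga2b and Itgb3 were highest in HSCs. Itga2b, the platelet fibrinogen receptor chain, read 292, 272, 191 and 205 CPM in HSC WT, 5.2, 7.7, 7.95 and 6.84 in LSEC WT and 0 to 0.385 in hepatocyte WT. Its partner chain Itgb3 read 441, 634, 646 and 703 CPM in HSC WT and 54.9, 34.8, 40.8 and 40.3 in LSEC WT, and no hepatocyte WT library held a count. Both were called higher in HSCs than in LSECs (5.12 for Itga2b, adjusted p = 9.58e-10, and 3.83 for Itgb3 on the log2 scale, adjusted p = 4.17e-08). Platelet markers other than Pf4 were near 0. In HSC WT libraries Ppbp was at 0 to 0.156 CPM, Gp9 at 0 to 0.0335 and Gp1bb at 0 to 0.0834, while Pf4 was at 9.48 to 12.9. The summed level of the 10 platelet markers was 10.4 to 14.1 CPM in HSC WT and 96.3 to 129 in LSEC WT, where Clec1b, which LSECs share with platelets, made up 90.3 to 121 CPM.

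The vitronectin receptor chains also separated the cells. Itgav was at 312 ± 45.8 CPM in HSC WT, 35 ± 3.88 in LSEC WT and 50.6 ± 32.6 in hepatocyte WT, and the LSEC and hepatocyte ranges overlapped. Itgb5 read 431, 325, 331 and 351 CPM in HSC WT, 84.8, 97.9, 204 and 203 in hepatocyte WT and 3.31, 1.03, 3.31 and 2.08 in LSEC WT, so that LSECs lay far below both other types (-5.93 on the log2 scale against hepatocytes, adjusted p = 8.3e-09). Itga1 was at 575 ± 76.9 CPM in HSC WT, 306 ± 34.4 in LSEC WT and 23.6 ± 11.9 in hepatocyte WT.

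LSECs led in Itga5 and Itga6. Itga5, the fibronectin receptor chain, read 228, 216, 215 and 196 CPM in LSEC WT, 39.3, 43.2, 30.4 and 38.7 in HSC WT and 37.3, 32.3, 59.9 and 64 in hepatocyte WT, with LSECs above both (2.12 on the log2 scale against hepatocytes, adjusted p = 3.01e-07). Itga6 read 58.4, 85, 73.2 and 70.1 CPM in LSEC WT and 0.167 ± 0.191 in HSC WT. The leukocyte beta chain Itgb7 was at 9.28, 8.19, 10.3 and 8.66 CPM in LSEC WT and 0.263, 0.156, 0.167 and 0.223 in HSC WT, while the pan-leukocyte gene Ptprc was at 0.548 to 1.31 CPM in the same LSEC libraries. The laminin receptor alpha chains Itga7 and Itga3 lay elsewhere: Itga7 was highest in hepatocytes at 12.5 ± 2.77 CPM and had no count in LSEC WT, and Itga3 was at 14 ± 3.79 CPM in HSC WT and 8.43 ± 5.65 in hepatocyte WT, with overlapping values, against 0.893 ± 0.412 in LSEC WT.

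Of the 36 members, 29 passed the filter on low counts in the WT comparison of cell types. Between HSC and LSEC 24 of the 29 were called (15 higher in HSC, 9 lower), against a background of 56.8% of all genes tested (29.7% higher and 27.1% lower). HSC against hepatocyte gave 25 of 29 (18 higher, 7 lower; background 79.1%, 43.2% higher and 35.9% lower), and LSEC against hepatocyte gave 22 of 29 (17 higher, 5 lower; background 79%, 42.7% higher and 36.3% lower). The median log2 difference of the tested members was 0.91, 3.19 and 3.07 in these comparisons, beside 0.01, 0.18 and 0.18 over all genes tested. At 12 h, 25, 25 and 24 of 30 tested members were called in the same comparisons (background 50.5%, 74.8% and 76.2%), and at 36 h 24, 25 and 23 of 30 (49.7%, 76.4% and 77%). A member called higher in 1 cell type than in both others was counted as highest there: 12 of 29 in HSC, 8 in LSEC and 3 in hepatocytes (Itga4, Itga7 and Lamb3), with 6 in none, while 17.5%, 18.5% and 29.7% of all genes were highest in HSC, LSEC and hepatocytes. At 12 h the counts were 10, 9 and 3 of 30 (background 15.5%, 16.7% and 27.4%), and at 36 h 13, 7 and 2 of 30 (16.1%, 16.9% and 28.8%). Itga1, Itgb1 and Itgb5 were highest in HSCs at WT and 36 h and in no cell type at 12 h.

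At 12 h after toxin the chains that changed differed in function and direction. In HSCs 9 of 26 tested members were called, against a background of 32% of all genes tested (17% higher and 15.1% lower): Itga2, Itga5, Itgb7 and Lamb3 rose, and Itga1, Itga8, Itgb5, Lama1 and Lamb2 fell. In LSECs 8 of 26 were called, against 18.2% of all genes (9.74% higher and 8.5% lower): Itga5, Itgb1, Itgb2, Itgb3 and Lamc1 rose, and Itga8, Lama3 and Lamb2 fell. Itga5, Itga8 and Lamb2 were called in both cell types, each in the same direction. The median log2 fold change of tested members was -0.24 in HSCs and 0.41 in LSECs, beside 0.01 and -0.02 over all genes tested.

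Genes that respond to cell handling moved at the same time. Of 7 genes listed for RNA quality and handling (Fos, Jun, Egr1, Hspa1a, Hspa1b, Malat1 and Neat1), 3 rose in HSCs at 12 h (Jun, Hspa1a and Hspa1b; list median 1.29), and in LSECs Hspa1a and Hspa1b rose and Malat1 fell (median 1.02). Between 12 h and 36 h 5 of the 7 fell in each cell type (medians -1.80 in HSCs and -2.53 in LSECs). The heat shock gene Hspa1a was at 18.4 to 81.5 CPM in HSC WT and 37.5 to 162 at 12 h, and at 26.6 to 116 in LSEC WT and 64.6 to 512 at 12 h. The immediate early gene Fos read 421, 1766, 194 and 197 CPM in HSC WT and 3135, 599.8, 492 and 3877 at 12 h, with overlap. The part of handling in the changes of the integrin and laminin chains was not tested.

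The promoter sequence upstream of 3 responding genes is shown because Itga8 and Itga5 moved in both sinusoidal cell types and Lamb3 had the widest rise in HSCs. The genes lie on GRCm38 (mm10) at chr2:12106632-12301922 for Itga8 (minus strand), chr15:103344286-103366763 for Itga5 (minus strand) and chr1:193207699-193343878 for Lamb3 (plus strand) in GENCODE M21. The sequences are from RefSeq on build GRCm38.p6 and run 5′ to 3′ up to the annotated start, 250 bases for Itga8 (chr2:12301945-12302194) and Itga5 (chr15:103366792-103367041), and 249 for 1 of the RefSeq start sites of Lamb3 (chr1:193301744-193301992). Capitals mark matches to the E-box CANNTG or the GC box GGGCGG on either strand.
Itga8: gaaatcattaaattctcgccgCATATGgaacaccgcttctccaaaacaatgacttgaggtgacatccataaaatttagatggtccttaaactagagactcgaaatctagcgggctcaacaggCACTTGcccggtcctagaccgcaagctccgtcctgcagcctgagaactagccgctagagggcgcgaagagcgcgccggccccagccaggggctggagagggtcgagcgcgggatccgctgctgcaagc
Itga5: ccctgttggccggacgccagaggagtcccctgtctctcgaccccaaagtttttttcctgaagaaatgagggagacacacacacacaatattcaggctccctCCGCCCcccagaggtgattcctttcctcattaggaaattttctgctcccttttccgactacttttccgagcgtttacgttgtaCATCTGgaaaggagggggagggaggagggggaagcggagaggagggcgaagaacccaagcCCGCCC
Lamb3: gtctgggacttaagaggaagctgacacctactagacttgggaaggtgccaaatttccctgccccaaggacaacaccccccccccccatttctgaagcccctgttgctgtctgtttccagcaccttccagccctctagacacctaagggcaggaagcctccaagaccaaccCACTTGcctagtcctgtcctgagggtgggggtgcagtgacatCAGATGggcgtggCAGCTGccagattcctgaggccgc
The E-box matched 2 times in the Itga8 window, 1 time in that of Itga5 and 3 times in that of Lamb3, and 66.2% of the 32851 promoters in the table hold a match in the same length. The GC box matched 2 times for Itga5 and at no place for the others (32.7% of promoters). The 3 windows held no match to the kappaB motif (GGG, any 5 bases, CC; 45.8% of promoters), the AP-1 motif TGANTCA (6.75%), the CRE TGACGTCA (1.55%), the TATA box TATAAA (12.4%) or the CArG box (1.47%). The whole Itga8 window also lies in an annotated exon of a gene that codes for no protein, and the Lamb3 window lies inside the GENCODE span of Lamb3, which begins further upstream.

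Itga8 had the widest fall of an abundant chain in either cell type. In HSCs it went from 283, 308, 278 and 209 CPM in WT to 94.7, 87.1, 28.6 and 52.2 at 12 h and 201, 281, 198 and 164 at 36 h. All 12 h values lay below all WT values, a 4.08-fold decrease (log2 fold change -2.03, SE 0.30, adjusted p = 0.000367). In LSECs it went from 330.5, 270.1, 239 and 241 CPM to 93.7, 77.6, 20.5 and 61.3 at 12 h and 173, 160.2, 242 and 166 at 36 h. The 12 h and WT values were again apart, with a 4.2-fold decrease (log2 fold change -2.07, SE 0.33, adjusted p = 0.00132). In both cell types replicate 3 was the lowest 12 h library. The summed level of 14 HSC identity genes was 57631 to 77952 CPM in HSC WT and 40569 to 57772 at 12 h. Ecm1 made up 24051 to 36690 and 21058 to 26942 CPM of that sum. At 12 h 2 of these 14 genes were called higher in HSCs and 6 lower (17% and 15.1% of all genes). The sum of 14 LSEC identity genes was 30432 to 34902 in LSEC WT and 22583 to 26950.2 at 12 h. Of these 1 was called higher in LSECs and 5 lower (9.74% and 8.5% of all genes). The part of either list in the Itga8 result was not tested. The counts could include reads of the overlapping antisense gene E030013I19Rik, which covers 5% of the Itga8 exon bases, since the strand setting of the counting is not given in the sources used here.

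Itga5 rose in both. HSC values were 39.3, 43.2, 30.4 and 38.7 CPM in WT and 54.8, 54, 79.4 and 65.1 at 12 h, apart from each other, a 1.67-fold rise (log2 fold change 0.74, SE 0.15, adjusted p = 0.00231). The LSEC values were 228, 216, 215 and 196 CPM in WT and 271, 287, 288 and 255 at 12 h, also apart, a 1.31-fold rise (log2 fold change 0.39, SE 0.10, adjusted p = 0.0137). At 36 h both groups overlapped WT, with 38.9, 47.5, 38 and 48.9 CPM in HSCs and 191, 197, 178 and 224 in LSECs. Itga5 fell between 12 h and 36 h in HSCs (-0.55 on the log2 scale, adjusted p = 0.0147) and in LSECs (-0.51, adjusted p = 0.00271).

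**Figure D3:**
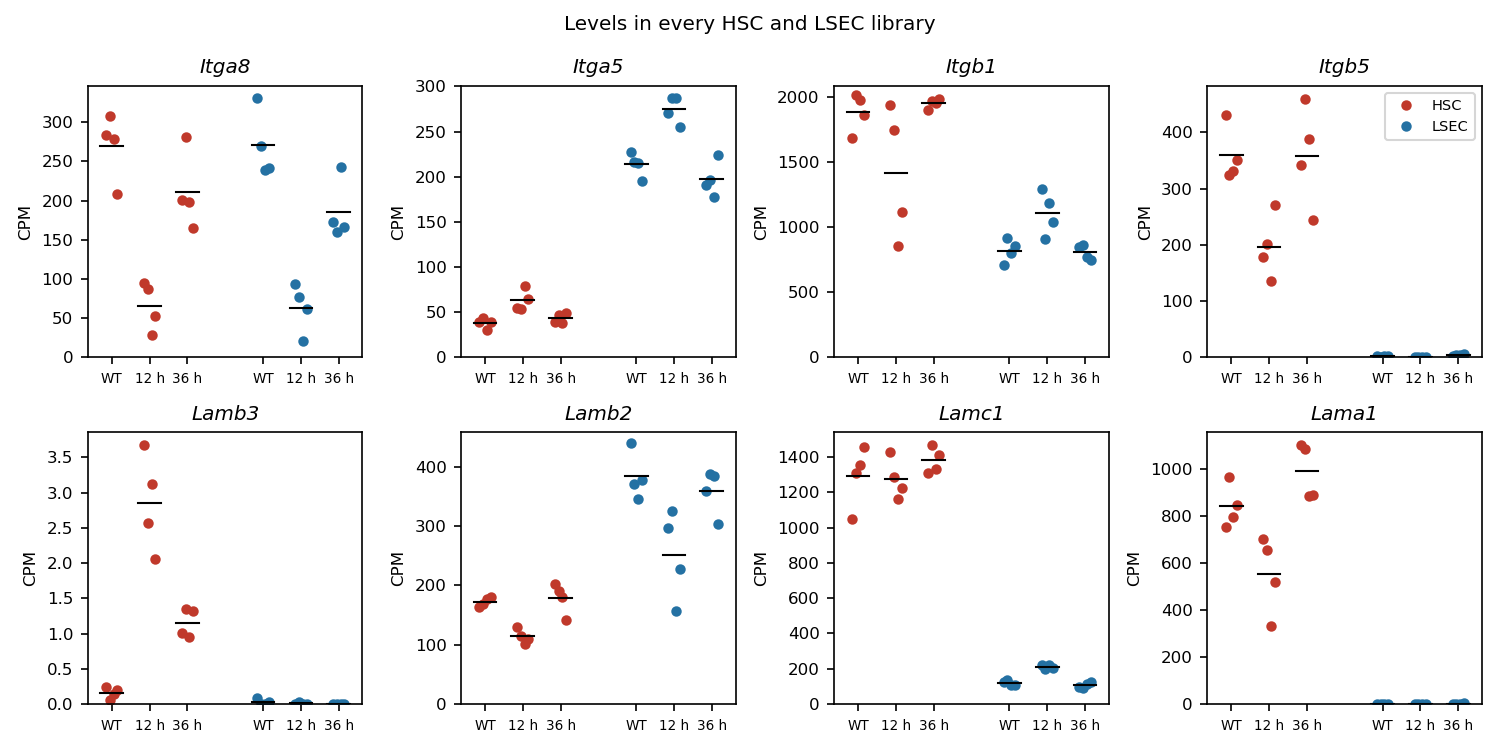
CPM of 8 member genes in every HSC (red) and LSEC (blue) library at WT, 12 h and 36 h; points are libraries, placed by replicate 1 to 4 from left to right, bars are means of 4, and each panel's axis starts at 0. Itga8 drops at 12 h in both cell types, Lamb3 rises at 12 h in HSCs, and Lamc1 rises at 12 h in LSECs.

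Lamb3, from a very low base, had the widest rise of a member in HSCs. It read 0.234, 0.0625, 0.134 and 0.195 CPM in HSC WT, 3.67, 2.56, 3.13 and 2.06 at 12 h and 1.01, 1.34, 0.957 and 1.31 at 36 h, 2 to 8 counts per WT library and 64 to 116 per 12 h library. The 3 groups did not overlap, and the rise at 12 h was 17.7-fold (log2 fold change 4.15, SE 0.38, adjusted p = 2.17e-05). The cholangiocyte markers, which stand for an epithelium that could carry Lamb3, summed to 1.2 to 3.65 CPM in HSC WT and 1.03 to 1.96 at 12 h, with a count for 10 and 7 of the 12. Of the 3 that could be tested 1 rose, Muc1, whose 12 h libraries held 0.358 to 0.798 CPM and whose WT libraries held 0.0278 to 0.268. Krt19 was at 0 to 0.1 CPM in WT and 0 in every 12 h library. The 12 identity genes of hepatocytes, the cell type highest in Lamb3, summed to 684 to 937 CPM in HSC WT and 675 to 924 at 12 h. The part of cholangiocytes or hepatocytes was not tested. The LSEC libraries held at most 3 counts of Lamb3. Itga2, which with Itgb1 binds collagen, rose from 0.585, 0.907, 1.61 and 0.417 CPM to 7.53, 4.74, 3.92 and 2.32 without overlap, a 5.32-fold change (log2 fold change 2.41, SE 0.44, adjusted p = 0.00123). Itga2 is also a platelet gene. The 10 platelet markers, 8 of them with a count, summed to 43.3 to 70.8 CPM in the HSC 12 h libraries against 10.4 to 14.1 in WT, of which Pf4 made up 42.7 to 70.0 and 9.48 to 12.9 CPM, while Ppbp stayed at or below 0.149 CPM at 12 h; the part of platelet RNA in this result was not tested. Itgb7 went from 0.263, 0.156, 0.167 and 0.223 CPM to 0.665, 0.686, 1.26 and 1.39 (log2 fold change 2.28, SE 0.41, adjusted p = 0.00114), with Ptprc at 0 to 0.665 CPM. These Itgb7 levels rest on 5 to 9 counts per WT library and 21 to 43 per 12 h library. The monocyte and neutrophil markers, 7 of 12 with a count, summed to 447 to 955 CPM at 12 h against 204 to 286 in WT, of which Plac8 made up 446 to 953 and 201 to 282, and their part was not tested.

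The HSC chains that fell at 12 h included abundant ones. Itgb5 read 431, 325, 331 and 351 CPM in WT and 179, 201, 136 and 270.1 at 12 h, without overlap (log2 fold change -0.87, SE 0.21, adjusted p = 0.00669). Itga1 read 521, 685, 523 and 569 CPM in WT and 441, 407, 289 and 288 at 12 h, also apart (log2 fold change -0.69, SE 0.18, adjusted p = 0.0114). Lamb2 read 164, 168, 176 and 180.3 CPM in WT and 129.9, 115, 102 and 109 at 12 h, apart as well (log2 fold change -0.59, SE 0.12, adjusted p = 0.00213). Lama1 was at 702, 653, 332 and 517 CPM at 12 h against 751, 966, 795 and 847 in WT, with adjusted p = 0.0299. Without HSC WT replicate 2, 3 or 4 or HSC 12 h replicate 4, and in a fit of only both groups compared, Lama1 was not called (adjusted p up to 0.0798).

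The other 2 chains of the HSC set, Lamb1 and Lamc1, were not called. Lamb1 was at 1098 ± 116 CPM in WT and 985 ± 205 at 12 h (95% interval of the log2 change -0.48 to 0.18), and Lamc1 at 1291 ± 174 and 1276 ± 114 (interval -0.25 to 0.23). Itgb1 spread widely among the HSC 12 h libraries, at 1939, 1749, 854 and 1118 CPM against 1688, 2019.8, 1977 and 1865 in WT. Replicates 3 and 4 lay below every WT library and replicates 1 and 2 within the WT range (adjusted p = 0.151). Without HSC 12 h replicate 1 Itgb1 was called lower (log2 fold change -0.60, adjusted p = 0.0346). Itga2b and Itgb3 had log2 changes of -0.01 (95% interval -0.41 to 0.39) and 0.12 (-0.21 to 0.45) at 12 h, and neither was called.

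In LSECs the gamma chain Lamc1 had the smallest adjusted p of the members. It read 124, 138, 106 and 106 CPM in WT, 221, 196, 219.9 and 204 at 12 h and 96.8, 91.1, 111 and 122 at 36 h. All 12 h libraries lay above all others, a 1.81-fold rise over WT (log2 fold change 0.86, SE 0.12, adjusted p = 0.000595) that was followed by a fall to 36 h, with a log2 change from 12 h of -1.03 (adjusted p = 0.000178). Lamb2, the leading beta chain of these cells, fell. It read 441, 372, 346 and 378 CPM in WT and 296, 325, 156 and 228 at 12 h, without overlap (log2 fold change -0.59, SE 0.18, adjusted p = 0.0411). The alpha chains Lama4 and Lama5 were not called, at 364 ± 89.5 and 291 ± 147 CPM for Lama4 and 67.3 ± 13.5 and 79.8 ± 15.1 for Lama5 in WT and at 12 h. Lama3 was at 17.5, 13.2, 6.1 and 10.6 CPM in WT and 8.98, 5.34, 1.82 and 2.66 at 12 h, with overlap (log2 fold change -1.31, SE 0.42, adjusted p = 0.0449).

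The beta chains gave smaller changes. Itgb1 read 708, 918, 799.6 and 859 CPM in LSEC WT and 1294, 911, 1185 and 1037 at 12 h, with 1 overlapping pair (log2 fold change 0.45, SE 0.12, adjusted p = 0.0214). Itgb3 read 54.9, 34.8, 40.8 and 40.3 CPM in WT and 69.4, 42.6, 73.5 and 63.6 at 12 h, with overlap (log2 fold change 0.57, SE 0.17, adjusted p = 0.0372). Itgb3 is also a platelet chain. The platelet gene Pf4 was at 0.566 to 1.76 CPM in LSEC WT and 3.44 to 7.15 at 12 h. The 10 platelet markers (9 with a count) summed to 96.3 to 129 and 105 to 158. Of these sums Clec1b, which LSECs also express, made up 90.3 to 121 and 98.8 to 141 CPM. The part of platelet RNA in the Itgb3 result was not tested. Itgb2, the shared beta chain of leukocyte integrins, read 0.537, 0.426, 0.469 and 0.769 CPM in WT and 0.622, 3.05, 2.29 and 2.26 at 12 h with 1 overlapping 12 h library (log2 fold change 1.92, SE 0.61, adjusted p = 0.044). Ptprc read 0.707, 0.548, 0.782 and 1.31 CPM in the same WT libraries and 0.379, 1.57, 1.06 and 2.29 at 12 h, and both genes were lowest at 12 h in replicate 1. The monocyte and neutrophil markers summed to 12.6 to 17.1 CPM in LSEC WT and 15.7 to 39.1 at 12 h. Plac8 made up 4.89 to 8.31 and 6.54 to 29.7 CPM of these sums. The lymphocyte markers summed to 1.89 to 7.15 and 1.79 to 8.6. The part of both lists in the Itgb2 result was not tested.

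Of the 8 LSEC calls, 5 depended on single libraries. Itga5, Itga8 and Lamc1 kept their calls under every alternative run for them. The count of 8 called members was 5 without LSEC WT replicate 1 or 2, 4 without WT replicate 3 or 4 or 12 h replicate 4, 3 without 12 h replicate 3, 6 without 12 h replicate 1 and 9 without 12 h replicate 2. The calls that were lost in some of these were Itgb1 (adjusted p up to 0.0644), Itgb2 (0.102), Itgb3 (0.11), Lama3 (0.128) and Lamb2 (0.106). Replicate 3 held the lowest LSEC 12 h value of Itga8, Itga9, Lama3, Lama4 and Lamb2, and Stab2 was 2208 CPM there against 3113 to 3869 in the other 3.

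**Figure D4:**
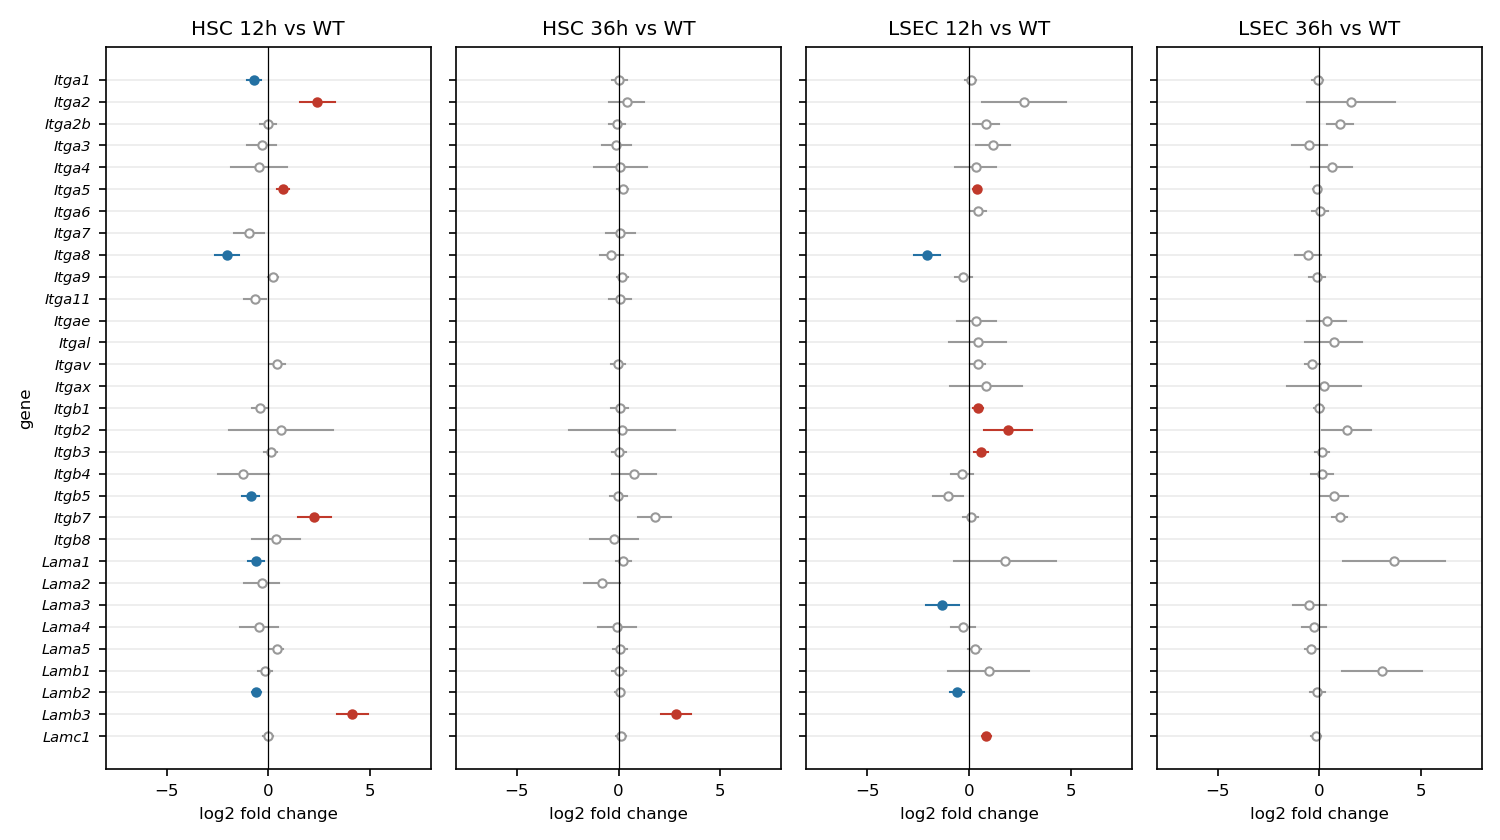
Log2 fold change from WT with 95% intervals for the members tested in HSCs or LSECs, at 12 h and 36 h; filled red points were called higher, filled blue points called lower (adjusted p under 0.05), open grey points not called, and gaps mark members that did not pass the filter in that cell type. At 12 h 9 HSC and 8 LSEC members are filled, and at 36 h only Lamb3 in HSCs.

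By 36 h most of these chains were no longer called against WT. In HSCs 1 of 26 members was called (background 0.142%; 18 genes of all tested, and 10 with the replicate number as a block): Lamb3, still 7.17-fold above WT (log2 fold change 2.84, SE 0.38, adjusted p = 0.0122). The call was lost without HSC WT replicate 3 or 4 (adjusted p up to 0.0641). Itgb7 was at 0.732, 0.811, 0.446 and 0.826 CPM, above all WT libraries, with adjusted p = 0.167. DESeq2 called it, among 129 of 12676 genes. Between 12 h and 36 h in HSCs 9 of 26 members were called (background 27.9%, 12.9% higher and 15% lower): Itga1, Itga8, Itgb4, Itgb5, Lama1 and Lamb2 rose, and Itga2, Itga5 and Lamb3 fell. Itga8 regained 3.2-fold (log2 fold change 1.68, SE 0.30, adjusted p = 0.0014) and Lama1 1.79-fold (log2 fold change 0.84, SE 0.20, adjusted p = 0.00638). The Itgb4 call rested on at most 18 counts per library and was lost under 7 of 13 alternatives.

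In LSECs no member was called at 36 h against WT by edgeR (background 0%). Unadjusted p was under 0.05 for 6 of 26 members and for 1288 of the 12286 genes tested. DESeq2 called Itgb7, among 109 genes in all. Itgb7 read 9.28, 8.19, 10.3 and 8.66 CPM in WT, 8.38, 8.1, 9.91 and 11.4 at 12 h and 14.3, 13.8, 26.2 and 18.9 at 36 h. Every 36 h library lay above every earlier one, with a 1.99-fold higher fitted level than in WT (95% interval of the log2 change 0.61 to 1.38, adjusted p = 0.182 in edgeR). Its rise from 12 h to 36 h was called (log2 fold change 0.92, SE 0.19, adjusted p = 0.0051). That comparison called 9 of 26 members, with Itga8, Itgb5 and Itgb7 higher and Itga3, Itga5, Itgav, Itgb1, Lama5 and Lamc1 lower (background 21.3%, 10.6% higher and 10.8% lower). In the LSEC 36 h libraries Lama1 read 0, 0.843, 0.383 and 4.58 CPM. Lamb1 read 0.0541, 0.534, 0.767 and 6.01 CPM there. Both were highest in replicate 4, the library that also held the most Lrat, with the HSC matrix gene Dcn at 98.8 CPM against 4.3 to 20.4 in the other 3. Neither was called against WT, and the part of HSC RNA was not tested.

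In hepatocytes 13 of 36 members could be tested, and edgeR called none in any of the 3 comparisons, in each of which it also called none of the 11326 genes tested (background 0%). Unadjusted p under 0.05 occurred for 0 members at 12 h, 1 at 36 h and 1 between 36 h and 12 h. Over all genes it occurred for 453, 564 and 725. DESeq2 called no member, and 45, 60 and 25 genes in all. Itgb5, Itgb1, Itga1, Itga3, Itga5, Itgav, Lamb3 and Lamc1 were each lower in all libraries above 100 CPM of Malat1 than in any other. Itga1 was at 12.6 to 14.4 CPM in the 5 such libraries and 24.6 to 36.5 in the other 7. Lamc1 was at 3.4 to 9.6 and 11.4 to 18.1 CPM. Itga4, Itga6, Itga7 and Itgal overlapped, and Itgae was higher in the 5. Hepatocyte group means average both kinds of library. Itgb5 read 84.8, 97.9, 204 and 203 CPM in WT, 113, 181, 198 and 186 at 12 h and 102, 99.1, 219 and 181 at 36 h. The 5 libraries above 100 CPM of Malat1 held 84.8 to 113 CPM of Itgb5 and the other 7 held 181 to 219. Itgb1 read 159.8, 147, 268 and 243 CPM in WT, 159, 213, 258 and 262 at 12 h and 191, 165, 239.6 and 212 at 36 h, and it too was lower in the 5 than in the 7. With the split as a term in the fit, edgeR again called no member at 12 h or 36 h against WT. What else set these libraries apart was not tested. Itga5 had a 95% interval of -0.21 to 1.15 for its log2 change at 12 h, which includes the size of the change called in HSCs and LSECs. That interval is from the fit without the Malat1 term. Itga5 was at 22 to 46.7 CPM in the 5 libraries and 59.9 to 87.3 in the other 7. WT replicates 1 and 2 and 12 h replicate 1 were among the 5, and the part of this split in the interval was not tested.

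Differences between the responses of the cell types were tested directly. At 12 h HSCs and LSECs differed in 1 of 32 tested members (background 1.62%), Itgb7, which had 5 to 9 counts per HSC WT library. Its log2 change was 2.19 larger in HSCs (adjusted p = 0.0366). That call was lost in 12 of the 16 fits that left out 1 library, with adjusted p up to 0.0884: any HSC WT library, HSC 12 h replicate 3 or 4, LSEC WT replicate 1, 3 or 4, or LSEC 12 h replicate 1, 2 or 3. The deviations of HSC and LSEC libraries of 1 replicate number had correlations of 0.142 to 0.453 at WT and 0.24 to 0.525 at 12 h. With that number as a block shared by both cell types 4 members were called. This block was chosen after seeing the data, and it was not run with single libraries left out. The share of all genes called with it is not given here, so the 4 have no background. A replicate block within each cell type called 1 member and 349 of 14104 genes, against 229 genes without a block. The members called with the shared block were Itgb7 (difference 2.17, SE 0.39, adjusted p = 0.00609), Lamc1 (-0.86, SE 0.18, adjusted p = 0.0163), Itgb1 (-0.92, SE 0.24, adjusted p = 0.0429) and Lamb3 (5.61, SE 1.45, adjusted p = 0.0498). The negative values mean a lower change in HSCs than in LSECs. LSECs held 4 counts of Lamb3 over the WT libraries and 1 over the 12 h libraries, so no LSEC response of Lamb3 can be measured and the size of its difference depends on the prior count.

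For the 3 chains that moved in both cell types, the difference between the responses was not called. In the blocked fit it was 0.10 (SE 0.22) for Itga8, 0.05 (SE 0.18) for Lamb2 and 0.36 (SE 0.15) for Itga5 on the log2 scale. Against hepatocytes at 12 h, 2 of 32 members were called for HSCs (Itga9 and Lamb3; background 9.2%) and 1 for LSECs (Itga9; background 3.57%). The Itga9 difference rested on hepatocyte libraries with 0.421, 1.59, 0.34 and 0 CPM in WT and no count at 12 h, that is at most 33 counts per WT library, beside no called change in HSCs or LSECs. Lamb3 rose in HSCs while hepatocytes read 3.18, 1.78, 4.36 and 4.95 CPM in WT and 2.49, 5.49, 5.35 and 6.48 at 12 h, with a difference of 3.65 (adjusted p = 0.00245). At 36 h edgeR called no member in the 3 response differences, HSC against LSEC, HSC against hepatocyte and LSEC against hepatocyte. The background was 0%, 0.00709% and 0.00709% in the same order. Unadjusted p was under 0.05 for 5, 3 and 4 of 32 members and for 567, 937 and 973 of 14104 genes. DESeq2 called 0, 2 and 1 members and 12, 64 and 95 genes in all.

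Replicate numbers 1 and 2 differed from 3 and 4 in some HSC chains at every condition. Lama2 read 56.9, 71.2, 34.4 and 33 CPM in WT, 64.2, 56.9, 13.5 and 20.4 at 12 h and 36.4, 38.4, 21.3 and 14.7 at 36 h, so that replicates 1 and 2 lay above replicates 3 and 4 in each group. Itga2b showed the same order within each group, with 276, 275, 173 and 228 CPM at 12 h and 298, 251, 199 and 162 at 36 h. The labels give no batch, and neither gene was called between conditions.

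Genes that act with these chains were counted at 12 h in 4 lists. Of all genes tested, 17% higher and 15.1% lower was the share called in HSCs (median log2 fold change 0.01), and 9.74% higher and 8.5% lower that in LSECs (median -0.02). Of adaptors and kinases that link integrins to actin, 3 of 24 tested rose and 6 fell in HSCs, and 3 of 25 rose and 2 fell in LSECs, near the shares over all genes. The crosslinker Actn1 rose in both, from 29.5 ± 3.74 to 46.7 ± 4.61 CPM in HSCs (log2 fold change 0.67, adjusted p = 0.00433) and from 7.76 ± 1.27 to 20.8 ± 6.15 in LSECs (1.45, adjusted p = 0.000434). Lims2, a binding partner of integrin-linked kinase, fell in both (-1.95 in HSCs and -0.65 in LSECs). Fermt3, the kindlin of blood cells, rose in both (1.28 and 1.03), Parva fell in HSCs (-0.42) and the crosslinker Flna rose in LSECs (1.10). The median log2 fold change of this list was -0.045 in HSCs and 0.01 in LSECs.

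Of basement membrane partners and laminin receptors, 4 of 16 rose and 4 fell in HSCs, and 5 of 14 rose and 1 fell in LSECs. The laminin-binding linker Nid2 fell in HSCs from 294 ± 54.1 to 126 ± 22.9 CPM (-1.21, adjusted p = 0.000169) and rose in LSECs from 12.9 ± 2.9 to 36.8 ± 4.61 (1.54, adjusted p = 0.00506). Its relative Nid1 fell in HSCs (-0.61), where the syndecan Sdc4 rose (2.16, adjusted p = 2.61e-05) and so did Rpsa (1.29), a ribosomal protein gene also known as a laminin receptor. In LSECs the basement membrane collagens Col4a1 and Col4a2 rose (0.98 and 1.24) and the laminin receptor Dag1 fell (-0.50). The list's median log2 fold change was -0.01 in HSCs and 0.28 in LSECs.

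Of matrix and plasma ligands of integrins, 7 of 23 rose and 2 fell in HSCs, and 1 of 22 rose and 0 fell in LSECs, against 18.2% of all genes called there, with medians of 0.02 and 0.41. Thrombospondin Thbs1 rose in both (1.99 and 2.33), and in HSCs Col1a1 (0.89) and the fibrinogen chain Fgb (1.47) rose and Fbln5 fell (-2.04). The 12 hepatocyte identity genes summed to 684 to 937 CPM in the HSC WT libraries and 675 to 924 at 12 h. The part of hepatocyte RNA in the Fgb result was not tested. Of cell surface counter-receptors, 4 of 10 rose and 1 fell in HSCs, and 5 of 11 rose in LSECs, with medians of 0.64 in both. Vcam1 rose in both (2.36, adjusted p = 2.25e-05, and 1.89, adjusted p = 0.000931). Madcam1, a ligand of the integrin formed by Itga4 and Itgb7, went from 0.0728 ± 0.0587 to 1.81 ± 1.81 CPM in HSCs (adjusted p = 0.000713) and from 0.0207 ± 0.0138 to 2.07 ± 0.931 in LSECs (adjusted p = 0.000931). Icam1 rose (1.59) and Jam3 fell (-0.51) in HSCs, and Jam2 (0.91) and Icam2 (0.64) rose in LSECs. At 36 h against WT, 1 ligand (Col1a1) and 1 counter-receptor (Madcam1) were called in HSCs, both higher, and no gene of the 4 lists was called in LSECs or hepatocytes.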

How the data were processed

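Each library had 1 deposited file of read counts per gene for 24421 symbols, made by the authors. Per the submitters' processing notes, FastQC 0.11.4, Trimmomatic 0.35, TopHat2 2.1.0 and SAMtools 0.1.18 were used with mm10; the sources used here do not name the counter, its strand setting or its annotation. The 5 lines naming no gene were left out (no_feature 4.9 to 9.02% and ambiguous 0.89 to 1.51% as a share of each file's reads). Libraries held 25404719 to 31734631 gene counts, which sets the precision, and floors of 3 counts cover counting error only. Of 54 within-group pairs of libraries, 0 were identical.

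Counts were tested with edgeR 4.0.16 in R 4.3.3 (glmQLFit, glmQLFTest; TMM scaling; filterByExpr, minimum count 10 and total 15; Benjamini-Hochberg over all genes tested; adjusted p under 0.05 called), in 24 comparisons. Each cell type's times were fitted with its 12 libraries, each condition's cell types with 12, and response differences with all 36. SE is the absolute log2 fold change divided by the square root of F. CPM uses 1 TMM scaling over 36 libraries, which differs from the fits' scaling by at most 0.034 on the log2 scale. Exon lengths come from GENCODE M21 (36 of 36 members matched), promoters from RefSeq (22 of 36 matched). The code was tested on simulated counts.

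Same-numbered libraries were taken as paired where every correlation of their deviations exceeded 0.1: HSC with LSEC at WT (0.142 to 0.453), 12 h (0.24 to 0.525) and 36 h (0.168 to 0.293), HSC 36 h with WT (0.142 to 0.301) and hepatocyte 36 h with WT (0.506 to 0.64). The main fits held no term for this pairing. Blocks by replicate number were run only as alternatives.

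Members and lists were chosen with earlier results of these data known. Named were all members and, per list and comparison with WT, up to 4 called genes by smallest adjusted p. The alternatives were RLE scaling, scaling over 36 libraries, no filter, DESeq2 1.42.0, only the groups compared, a replicate block, a Malat1 term for hepatocytes and leaving out each library. 1 integrin symbol and some values of low members are not reported here.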

Additional observations from a re-analysis of the deposited data

Results flagged for a closer look

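In 4 groups of 4 libraries 1 value stood apart from the other 3, among 119 groups of members tested, and chance flags about 1 in 20. Itgav was 613 CPM in HSC 12 h replicate 1 against 344 to 374 in the others. Itga8 was 242 CPM in LSEC 36 h replicate 3 against 160.2 to 173. Lama5 was 39.5 CPM in LSEC 36 h replicate 2 against 54.4 to 55.8. Itga7 was 15.3 CPM in hepatocyte 12 h replicate 1 against 16.3 to 16.5.

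4 differences between the 12 h responses of cell types passed the test. The Itgb7 change was larger in HSCs than in LSECs by 2.19 on the log2 scale (adjusted p = 0.0366). Lamb3 changed more in HSCs than in hepatocytes by 3.65 (adjusted p = 0.00245). The fitted Itga9 differences were 7.34 for HSCs (adjusted p = 0.00134) and 6.84 for LSECs (adjusted p = 0.00829) against hepatocytes, and their size depends on the prior count because the 4 hepatocyte 12 h libraries had no count.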

How the results depend on the processing

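No called member changed direction under any alternative. Of 3609 alternative values for called members 3515 kept the call and 94 lost it. These values pool comparisons of cell types, with 22 to 25 called members each, with comparisons over time, with 0 to 9, and response differences, with 0 to 2. They therefore describe mostly the differences between cell types. Of 436 alternative counts 401 stayed within 1.5 times the count given. DESeq2 called 2 members at 36 h in HSCs (1 by edgeR) and 1 at 36 h in LSECs (0). In the 12 h response differences of HSC against LSEC, HSC against hepatocyte and LSEC against hepatocyte it called 2, 4 and 2 (1, 2 and 1). At 36 h it called 2 and 1 in the last 2 of these (0 and 0). DESeq2 also called more of all genes than edgeR, with 129 against 18 at 36 h in HSCs and 109 against 0 in LSECs. In the 12 h response differences it called 465, 1828 and 991 genes against 229, 1298 and 503. At 36 h it called 64 and 95 in the last 2 against 1 and 1. A fit of only the groups compared called 5 members in LSECs at 12 h (8), 3 in the HSC against LSEC response at 12 h (1) and 0 in the LSEC against hepatocyte response at 12 h (1, Itga9, adjusted p = 0.0634). With the replicate block 5 members were called in the HSC against hepatocyte response at 12 h (2), where same-numbered libraries were not paired. There it called 1907 of all genes against 1298 without it. With the same block 1 member was highest in hepatocytes at 36 h (2). With the block shared by HSC and LSEC, chosen after seeing the data, 4 differed at 12 h (1). All-gene counts for the shared block and for the fit of only the groups compared are not given here. Across all replicate block fits 251 calls of members held and 6 were lost, none of these in a comparison whose libraries were paired. Leaving out 1 library gave 0 to 1 at 36 h in HSCs, 3 to 9 in LSECs at 12 h, 0 to 1 in the HSC against LSEC response at 12 h and 36 h, and 1 to 2 in the LSEC against hepatocyte response at 12 h. The cause of these shifts was not tested. Members under 5 CPM rest on few counts, which limits the precision of Itgb2, Itgb4, Itgb7 in HSCs and Lamb3.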
